A study of Homo sapiens with 16 samples.

Results

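Small nucleolar RNA (snoRNA) entries were taken from the deposited expression table as the rows whose symbol starts with SNORD or SNORA followed by a digit and whose level reached 1 TPM in at least 3 of the 16 libraries. TPM is an abundance corrected for transcript length, with 1 common total for all libraries. Of 429 such symbols, 233 met this minimum, 147 of them SNORD and 86 SNORA, and 136 of the 429 were listed at 0 in every library. The cells were NOMO-1, a human line from acute monocytic leukaemia, and poly(A)-enriched RNA was sequenced. The groups were CS1 at 100 nM for 72 h (n = 3), CS2 at 500 nM for 72 h (n = 3) and the solvent DMSO for 72 h (n = 4). The other groups carried a lentiviral hairpin and spent 1 week under puromycin at 1 µg/ml: shFTO, against the m6A demethylase FTO (n = 3), and the control hairpin shNS (n = 3). The study used CS1 and CS2 as FTO inhibitors; from general knowledge of its publication, not checked here, they are bisantrene and brequinar, the second of which blocks DHODH in pyrimidine synthesis. The replicates are described as biological, all come from 1 line, and neither the number of clones nor the hairpin sequence is given in the sources used here.

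FTO was listed at 8.12, 7.49 and 8.35 TPM in shFTO libraries, against 31.27, 30.82 and 32.79 TPM in shNS libraries, so the hairpin labels matched its target. The myeloid genes CD33 (65.8 to 96.0 TPM) and SPI1 (114 to 178 TPM) were present in every library, MPO was at most 0.60 TPM, and CD3E and HBA1 were at 0. Levels of LYZ and CD68, genes of mature monocytes, were higher in all CS1, CS2 and shFTO libraries than in the libraries of their control groups. In bulk samples, fewer cells of a type and less RNA per cell cannot be told apart.

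Box C/D snoRNAs (SNORD) guide ribose methylation and H/ACA snoRNAs (SNORA) guide pseudouridylation of ribosomal RNA, and a few of each class act in cleaving its precursor. Most human snoRNAs are cut from introns of host genes, many of which encode ribosomal proteins, translation factors or spliced long noncoding RNAs such as GAS5 and the SNHG genes. Mature snoRNAs are short and carry no poly(A) tail, so a poly(A)-enriched library holds little of them and may also hold host RNA that spans them. Among the 233 entries, 110 lay within an annotated exon of a longer GENCODE release 29 transcript, 118 lay in an intron and 5 lay in no gene. Of the 212 entries with a sequence, 65 were held in full only by transcripts annotated as retained introns, 45 by transcripts of another kind and 102 by none.

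The sequences below are those on which the main results turn, read from GENCODE release 29 transcripts (GRCh38). Capitals mark the box motifs where a search found them: TGATGA, the C box of the box C/D class, within 20 bases of the 5′ end; CTGA, the D box, within 14 bases of the 3′ end; and ACA, of the H/ACA class, within 8 bases of the 3′ end. First are box C/D entries that lie in GAS5, at chr1:173866635-173866715, minus strand (SNORD76), chr1:173864369-173864445, minus strand (SNORD47), chr1:173865350-173865430, minus strand (SNORD79) and chr1:173865968-173866028, minus strand (SNORD44).
SNORD76: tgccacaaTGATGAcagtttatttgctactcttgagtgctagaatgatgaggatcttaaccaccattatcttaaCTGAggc
SNORD47: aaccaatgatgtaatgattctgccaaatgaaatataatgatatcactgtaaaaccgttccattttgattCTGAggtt
SNORD79: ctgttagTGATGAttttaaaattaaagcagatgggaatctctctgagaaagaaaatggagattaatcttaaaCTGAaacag
SNORD44: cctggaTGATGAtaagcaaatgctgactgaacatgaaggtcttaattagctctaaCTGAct

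Next are a pair that lie in SNHG1, whose host RNA and snoRNA entries changed in opposite directions after CS2. They lie at chr11:62854621-62854695, minus strand (SNORD28) and chr11:62853904-62853968, minus strand (SNORD29).
SNORD28: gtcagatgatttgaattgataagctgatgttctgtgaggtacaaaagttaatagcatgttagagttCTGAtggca
SNORD29: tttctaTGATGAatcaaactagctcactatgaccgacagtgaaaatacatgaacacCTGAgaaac

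NOP56 holds 3 entries that passed the test with the FTO hairpin, at chr20:2656624-2656694, plus strand (SNORD56), chr20:2656939-2657010, plus strand (SNORD57) and chr20:2655067-2655198, plus strand (SNORA51). SNORD57 and SNORA51 fell and SNORD56 rose. The SNORA51 and SNORD56 calls rested on few reads.
SNORD56: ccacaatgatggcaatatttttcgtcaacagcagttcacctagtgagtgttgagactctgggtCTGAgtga
SNORD57: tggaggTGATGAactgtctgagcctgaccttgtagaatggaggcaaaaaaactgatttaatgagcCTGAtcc
SNORA51: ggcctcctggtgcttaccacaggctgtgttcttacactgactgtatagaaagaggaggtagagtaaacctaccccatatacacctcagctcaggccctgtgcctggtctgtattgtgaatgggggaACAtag

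SNHG12 holds SNORA61 (chr1:28579764-28579893, minus strand) and SNORA44 (chr1:28580381-28580512, minus strand). SNORA61 fell after CS2 on many reads, and SNORA44 rose with the FTO hairpin.
SNORA61: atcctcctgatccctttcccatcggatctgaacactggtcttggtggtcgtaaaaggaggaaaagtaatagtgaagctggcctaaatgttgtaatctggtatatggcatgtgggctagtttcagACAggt
SNORA44: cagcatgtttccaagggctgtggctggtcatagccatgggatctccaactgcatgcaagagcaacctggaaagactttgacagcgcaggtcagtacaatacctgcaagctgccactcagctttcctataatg

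TGATGA was present in the 5′ window of 66.2% of 130 SNORD entries and 0% of 82 SNORA entries, and CTGA in the 3′ window of 90.8% and 3.7%. ACA was present in the 3′ window of 89.0% of the SNORA entries and 8.5% of the SNORD entries. Only the RNA strand was searched, and the motifs do not overlap each other. Among other GENCODE entries of the same class the shares were 71.1% (TGATGA) and 91.8% (CTGA) of 159 SNORD and 90.3% (ACA) of 62 SNORA sequences.

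How many reads stood behind a level limited what could be seen. Low TPM values of these entries fell on whole multiples of a step set by the library and the entry's length. In each library 89.4% to 97.1% of values lay within 0.1 of a whole multiple. The step, and the 50 bases taken off each length, were themselves fitted to raise this share. The 20% given by the tolerance for a fixed step is thus not its baseline. With 44 or 55 bases taken off and the step fitted anew, the share was 48.4% to 66.9%. A single step, called here a read equivalent, was worth 3.10 to 4.21 TPM for an entry of 70 bases. The median entry averaged 2.63 read equivalents per library. Only 39 of the 233 entries averaged 10 or more, 8 averaged 50 or more and 3 averaged 100 or more. The median standard error of a log2 fold change was 0.44 for the snoRNA entries against 0.07 for all 14951 entries tested (CS1 or CS2 against DMSO), and 0.48 against 0.08 with the hairpin. Replicates of a group correlated at 0.783 to 0.887 over the snoRNA entries and at 0.988 to 0.993 over all tested entries (Pearson, log2 scale).

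The median level, taken as the mean of the 5 group means, was 3.58 TPM for SNORD and 3.52 TPM for SNORA entries. Entries within an exon had a median level of 8.21 TPM, against 1.71 TPM for those in introns. All 233 entries passed the minimum by definition, 70 reached 1 TPM in every library (38 SNORD and 32 SNORA), and 1 reached it in libraries of 1 group only. Just inside the minimum, SNORA11B, SNORA23 and SNORD67 had third-highest levels of 1.09, 1.21 and 1.21 TPM, and just outside it SNORA37, SNORA101B and SNORA28 had 0.99, 0.96 and 0.93 TPM. All 9 SNORD113, 31 SNORD114 and 48 SNORD115 copies, imprinted clusters best known from brain, were listed at 0 in every library. Of 30 SNORD116 copies, 10 met the minimum. These copies are near identical, so their values are uncertain. A total of 5 pairs of entries, among them SNORD62A and SNORD62B, had the same value in every library and were counted as deposited.

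A set of 3 entries stood far above the rest. For SNORA109 no sequence was available here, so its motifs and matches to other RNA were not examined. SNORA109 (chrX:55183480-55183607 in RefSeq's GRCh38.p14) averaged 3169 ± 193 TPM in CS1, 2528 ± 596 TPM in CS2 and 4403 ± 312 TPM in DMSO libraries, and 2937 ± 238 TPM in shFTO and 2609 ± 313 TPM in shNS libraries (SD, n = 3, or 4 for DMSO). It lies 1038 bases from MTRNR2L10 in a run of pseudogenes that resemble mitochondrial genes. Its level did not follow MTRNR2L10 across the 16 libraries (Pearson r = -0.23, a description); the genes most like it were DIEXF (r = 0.90), CRLS1 (0.89) and LRP8 (0.89). SNORD141A and SNORD141B, at a mean of 1371 TPM over the 5 groups, had identical values in every library. They lie in the pseudogenes EEF1A1P5 (SNORD141A at chr9:133020430-133020534, plus strand) and EEF1A1P13.
SNORD141A: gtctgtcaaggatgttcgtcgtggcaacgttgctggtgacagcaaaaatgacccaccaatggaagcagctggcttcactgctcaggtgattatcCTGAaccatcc

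All 105 bases of both SNORD141 entries are identical to a stretch of the EEF1A1 messenger RNA and to each other. The sequence holds no TGATGA in its 5′ window and 1 CTGA, in capitals above, in its 3′ window. Their level followed EEF1A1, the translation elongation factor, over the 16 libraries (Pearson r = 0.994) and RPS6 (r = 0.997). SNORD141A averaged 373 ± 24.5 TPM after CS2 against 1355 ± 133 TPM in DMSO (log2 fold change -1.86, SE 0.08, limma with Benjamini-Hochberg adjusted p = 1.1e-11), and EEF1A1 changed by -1.91. Reads of these entries and of EEF1A1 cannot be told apart by sequence. Sums below leave out SNORA109, SNORD141A and SNORD141B, and counts of entries keep them.

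**Figure D1:**
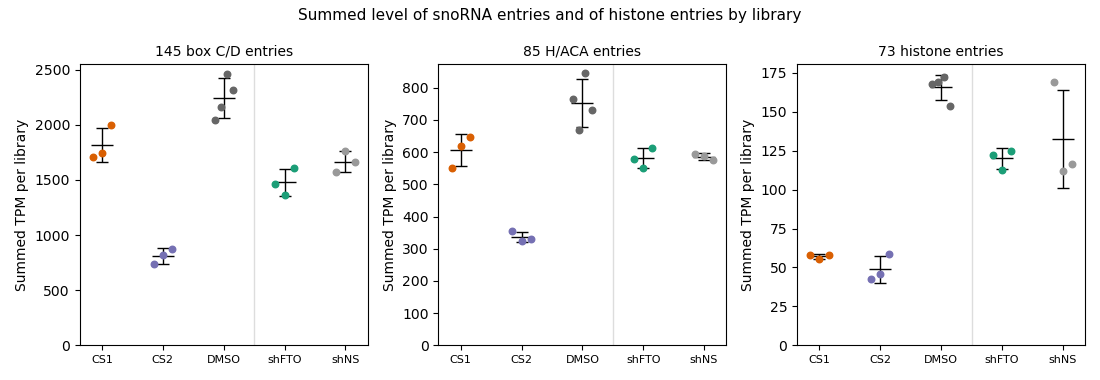
Summed TPM per library (points), with the group mean and SD (black), for 145 box C/D entries without SNORD141A and SNORD141B, 85 H/ACA entries without SNORA109 and 73 histone entries, most of which end in a stem-loop and not in a poly(A) tail. In both snoRNA classes the 3 CS2 libraries lie below every other library, and the histone sums are low in the CS1 and CS2 libraries.

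The summed level of the box C/D entries was 1818 ± 154 TPM in CS1, 811 ± 72.6 TPM in CS2 and 2244 ± 183 TPM in DMSO libraries, and 1477 ± 121 TPM in shFTO and 1665 ± 94.0 TPM in shNS libraries (SD). The H/ACA entries summed to 606 ± 49.4 TPM in CS1, 336 ± 15.7 TPM in CS2 and 753 ± 73.8 TPM in DMSO, and to 581 ± 30.7 TPM in shFTO and 586 ± 10.4 TPM in shNS libraries. Both CS1 and CS2 sums lay below all DMSO libraries in each class, and the shFTO and shNS sums overlapped. Other RNA that mostly lacks a poly(A) tail was summed in the same way. Histone entries summed to 57.1 ± 1.53 TPM in CS1, 48.8 ± 8.48 TPM in CS2 and 166 ± 8.11 TPM in DMSO, and to 120 ± 6.57 TPM in shFTO and 132 ± 31.7 TPM in shNS libraries. Ribosomal RNA entries summed to 11411 ± 1663 TPM in CS1, 17279 ± 11006 TPM in CS2 and 32718 ± 12016 TPM in DMSO, and to 30480 ± 4493 TPM in shFTO and 26962 ± 15484 TPM in shNS libraries. A set of 57 other short noncoding RNA entries (RMRP, RPPH1, 7SK, 7SL, RNU and SCARNA) overlapped between the groups compared, at 499 ± 176 TPM in CS1, 536 ± 111 TPM in CS2 and 455 ± 12.7 TPM in DMSO, and 621 ± 42.6 TPM in shFTO against 748 ± 157 TPM in shNS. The histone sums of all CS1 and CS2 libraries and the ribosomal RNA sums of all CS1 libraries lay below DMSO, and the other pairs overlapped. The part of such RNA carry-over in the snoRNA values was not tested.

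After CS2, 99 of the 233 snoRNA entries fell and 4 rose (limma, adjusted p under 0.05 over all 14951 entries tested), where 24.6% of all tested entries fell and 49.5% rose. The share that fell was 42.5% of the snoRNA entries. By class, 59 of 147 SNORD entries fell and 2 rose, and 40 of 86 SNORA entries fell and 2 rose. The median log2 fold change, on the log2(TPM + 1) scale, was -0.84 for the snoRNA entries and 0.20 for all tested entries, a gap of -1.04. With every library scaled to the same median these medians were -1.07 and -0.03, and of all tested entries 5667 fell and 5199 rose. Of the 99 that fell, 15 were listed at 0 in all 3 CS2 libraries, and SNORA109 and the SNORD141 pair were among the 99. The median over the 194 entries that were above 0 in each group was -0.83. Of the 39 entries with 10 or more read equivalents, 32 fell and 0 rose (median -1.41), while at an unadjusted p under 0.05 the count in either direction was 33.

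**Figure D2:**
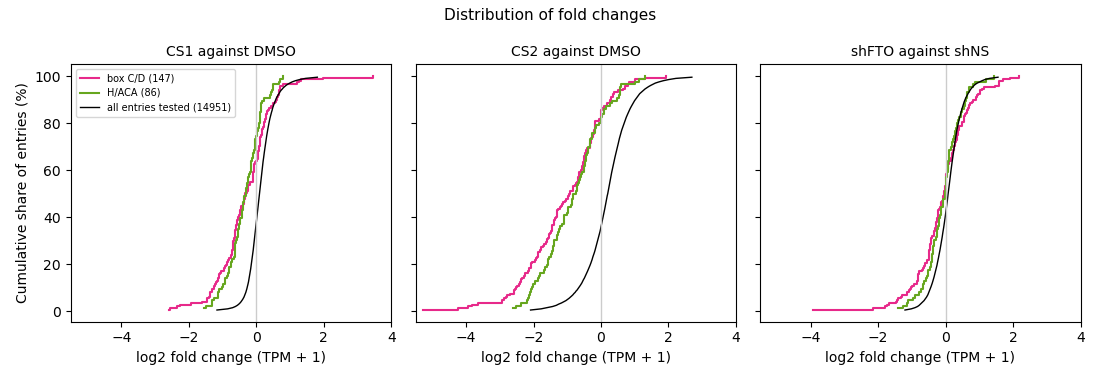
Cumulative share of entries (vertical axis, %) at or below each log2 fold change (horizontal axis) for SNORD, SNORA and all tested entries in each comparison. Both snoRNA curves lie left of the curve of all tested entries after CS2, where the medians were -0.92 (SNORD), -0.78 (SNORA) and 0.20 (all).

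The fall after CS2 was also counted by place, host and reads. Among entries in exons 65 of 110 fell (median -1.40), and among those in introns 32 of 118 (median -0.52). With ribosomal protein hosts, here symbols RPL or RPS followed by a digit or A, 30 of 53 fell (median -1.32). With GAS5, ZFAS1 or SNHG hosts 31 of 55 fell (median -1.50), and with other hosts 25 of 107 (median -0.34). The other hosts include RPLP2. They leave out 13 entries whose host is a translation factor or its pseudogene and 5 entries in no gene, which were not counted as sets. Of all tested entries 24.6% fell. The shares in introns (27.1%) and with other hosts (23.4%) were near that. Those in exons (59.1%), with ribosomal protein hosts (56.6%) and with GAS5, ZFAS1 or SNHG hosts (56.4%) were above it. By reads, 32 of 39 entries with 10 or more read equivalents fell and 67 of 194 with fewer (median -0.68), and entries in exons also had the higher levels given above. The differences between these sets were not tested, and entries of one host share that gene.

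GAS5, a spliced noncoding RNA whose introns carry box C/D snoRNAs, held 10 of the entries, and 6 of them fell after CS2. SNORD76, which guides methylation of ribosomal RNA and averaged 86.1 read equivalents per library, was listed at 10.1, 10.9 and 16.6 TPM in CS2 libraries, against 257.5, 243.2, 263.0 and 226.0 TPM in DMSO libraries (log2 fold change -4.23, SE 0.14, limma adjusted p = 1e-12). SNORD47 was at 29.03, 15.6 and 32.7 TPM after CS2, against 94.8, 165.0, 204.6 and 161.0 TPM in DMSO (-2.57, SE 0.25). SNORD79 was at 7.58, 16.3 and 7.13 TPM after CS2, against 43.7, 75.2, 71.7 and 62.8 TPM in DMSO (-2.57, SE 0.23). For these members every CS2 library lay below every DMSO library. SNORD44 was at 0 in all 3 CS2 libraries, against 20.5, 49.8, 36.8 and 53.1 TPM in DMSO libraries (adjusted p = 2.3e-05). SNORD80 and SNORA103 fell with log2 fold changes of -2.52 each. The host RNA fell less than SNORD76 did, to 83.1 ± 3.03 TPM after CS2 against 345 ± 18.2 TPM in DMSO (-2.04, SE 0.07).

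**Figure D3:**
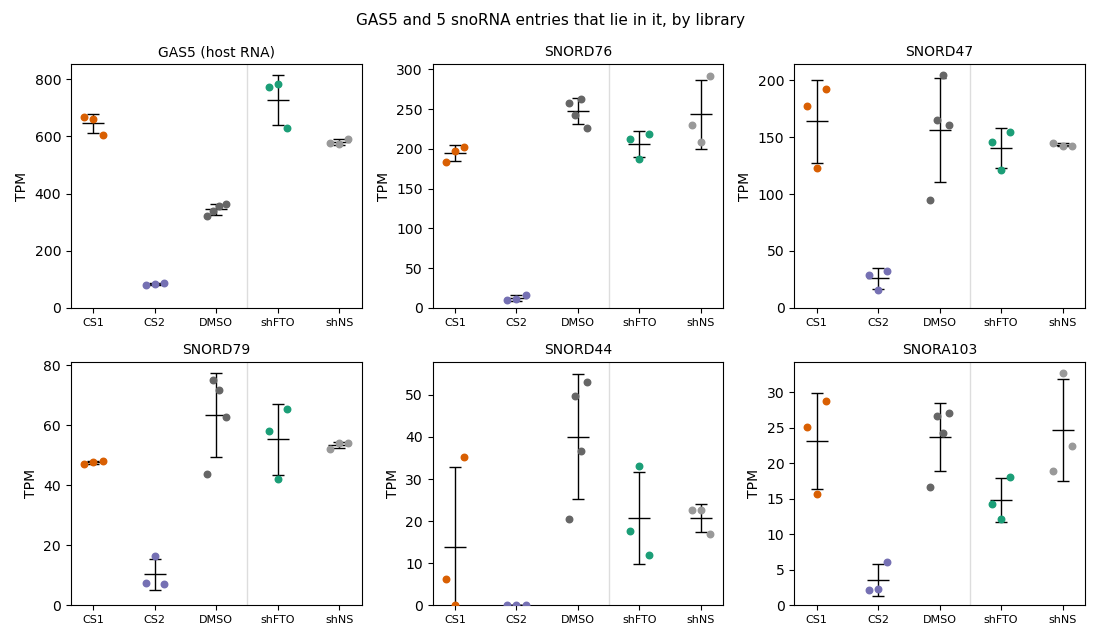
TPM of the host RNA GAS5 and of 5 snoRNA entries that lie in it, with 1 point per library and the group mean and SD in black. All CS2 libraries are below all DMSO libraries in each panel, whereas in CS1 libraries GAS5 is higher than in DMSO and SNORD76 is lower.

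SNHG1 is another noncoding host. Its RNA rose to 226 ± 8.38 TPM after CS2 against 189 ± 13.98 TPM in DMSO (0.26, SE 0.05, adjusted p = 0.00030), while 6 of its 8 snoRNA entries fell. SNORD22 was at 21.7, 24.4 and 16.5 TPM after CS2, against 36.7, 39.7, 35.5 and 38.4 TPM in DMSO (-0.84, SE 0.13). SNORD28 was at 40.8, 20.2 and 32.4 TPM after CS2, against 81.3, 74.0, 56.6 and 59.7 TPM in DMSO (-1.14, SE 0.21). SNORD29 was at 73.2, 84.2 and 39.3 TPM, against 85.3, 86.8, 103.3 and 95.2 TPM in DMSO (-0.56, SE 0.21). Its call was lost without CS2 replicate 3 (-0.23) or DMSO replicate 3 (-0.51), while the SNORD28 call held without each library in turn. SNORD26 and SNORD27 fell as well (-1.62 and -1.34), and SNORD25 was at 0 in all CS2 libraries. SNHG1 and GAS5 were singled out here after their values were seen.

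Among other hosts, SNHG12 held SNORA61, which was at 12.7, 10.5 and 12.0 TPM after CS2, against 60.2, 41.1, 48.9 and 55.96 TPM in DMSO (-2.03, SE 0.14), and its host fell by a log2 fold change of 1.40. SNORA73A, the U17 RNA needed for cleaving the ribosomal precursor, lay in SNHG3 and was at 7.99, 5.36 and 13.6 TPM after CS2, against 47.0, 44.5, 45.9 and 32.7 TPM in DMSO (-2.19, SE 0.22). The ribosomal protein gene RPL7A held SNORD36A, which was at 64.1, 61.2 and 83.7 TPM after CS2, against 167.7, 158.9, 202.1 and 165.2 TPM in DMSO (-1.31, SE 0.20). Among the 4 entries in EIF4A2, an RNA helicase of translation initiation, SNORA63 fell by 1.70 and SNORA4 by 1.41 on the log2 scale. SNORA67, in EIF4A1, did not pass: it was at 24.3, 21.3 and 23.7 TPM after CS2, against 26.0, 22.1, 23.2 and 35.1 TPM in DMSO, with overlapping groups (-0.17, SE 0.14, adjusted p = 0.27). SNORA104, in ADGRE3, was at 82.5, 45.6 and 53.4 TPM after CS2, against 54.6, 35.1, 51.2 and 27.5 TPM in DMSO (0.52, SE 0.35, adjusted p = 0.19). SNORD3A, the U3 RNA, transcribed from its own gene and central to precursor cleavage, fell to 4.33, 8.07 and 4.85 TPM after CS2, against 11.7, 14.4, 14.5 and 15.2 TPM in DMSO (-1.18, SE 0.20).

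Falls on few reads outside GAS5 were counted in RPS12, ATP5F1B and HSPA8. SNORD100 and SNORD101, both in RPS12, were at 0 in all CS2 libraries, where the DMSO libraries held 5.79 to 25.9 TPM and 8.79 to 16.4 TPM. SNORD59A was at 0, 0 and 2.95 TPM after CS2, against 18.1, 21.9, 27.0 and 28.6 TPM in DMSO (-3.95, SE 0.54). SNORD14D in HSPA8 was at 0, 4.55 and 5.97 TPM, against 22.4, 13.0, 32.8 and 38.6 TPM in DMSO (-2.93, SE 0.65). The 4 entries that rose were SNORD89, SNORD67, SNORA92 and SNORA11B, none of which averaged 10 read equivalents. SNORD89 was at 14.7, 21.1 and 13.8 TPM after CS2, against 12.9, 12.9, 5.26 and 9.12 TPM in DMSO (0.71, SE 0.29). Its call was lost without CS2 replicate 1 (0.78) or 2 (0.54), or DMSO replicate 3 (0.46) or 4 (0.69).

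**Figure D4:**
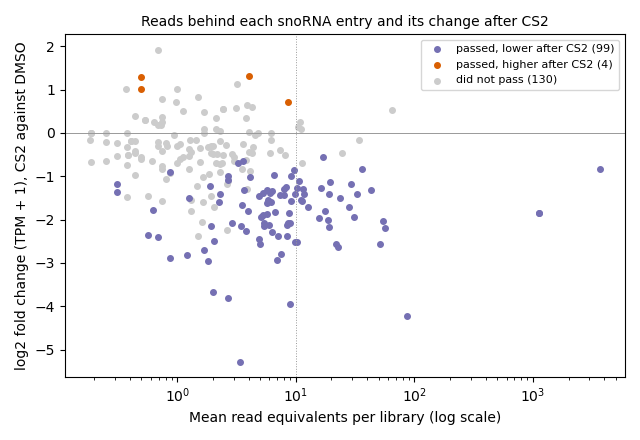
Log2 fold change after CS2 against the mean read equivalents per library (log axis) for the 233 snoRNA entries, coloured by test result. The 99 entries that fell span both sides of the dotted line at 10 read equivalents, and the 4 that rose are all left of it.

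After CS1, 27 of the 233 snoRNA entries fell and 2 rose, where 14.3% of all tested entries fell and 37.5% rose (limma, adjusted p under 0.05). The share that fell was 11.6%, near that of all tested entries, and the share that rose was 0.858%. The snoRNA entries had the larger standard errors given above, so shares that passed are hard to compare with those of all tested entries. By class, 12 SNORD and 15 SNORA entries fell, and 2 SNORD and 0 SNORA entries rose. The median log2 fold change was -0.31 for the snoRNA entries and 0.09 for all tested entries. Scaling every library to the same median moved the median of all tested entries by over 0.1, to -0.09, and the snoRNA median to -0.49. With that scaling 47 snoRNA entries fell and 2 rose, where 5246 of all tested entries fell and 3201 rose. CS1 and CS2 share the DMSO libraries, and their doses differ, so they were not set against each other. Of the 39 entries with 10 or more read equivalents, 5 fell and 0 rose after CS1; at an unadjusted p under 0.05 the count in either direction was 7.

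In GAS5 the host RNA and the snoRNA entries again differed. GAS5 rose to 668, 662 and 607 TPM after CS1 against 322, 339, 355 and 363 TPM in DMSO (0.90, SE 0.07, adjusted p = 3.7e-08). SNORD76 fell to 183.8, 197.8 and 202.8 TPM after CS1 against 257.5, 243.2, 263.0 and 226.0 TPM in DMSO (-0.34, SE 0.14, adjusted p = 0.049). The groups did not overlap, but the call was lost without any of CS1 replicates 1 (-0.30), 2 (-0.35) and 3 (-0.37) and DMSO replicates 1 (-0.32), 2 (-0.35) and 3 (-0.31). SNORD47 was at 177.6, 122.7 and 192.0 TPM after CS1, against 94.8, 165.0, 204.6 and 161.0 TPM in DMSO (0.10, SE 0.25). SNORD79 was at 47.1, 47.7 and 48.1 TPM, against 43.7, 75.2, 71.7 and 62.8 TPM in DMSO (-0.37, SE 0.23). SNORD78 was at 17.4, 17.6 and 32.4 TPM after CS1, against 0, 0, 0 and 16.2 TPM in DMSO, and rose (limma adjusted p = 0.024) on an average of 1.64 read equivalents. The SNORD78 call was lost without CS1 replicate 2 (3.60) or 3 (3.18) or DMSO replicate 1, 2 or 3 (3.12 each). SNORD1B, at 0, 1.96 and 3.60 TPM after CS1 and 0 in every DMSO library, was the other entry that rose.

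The TPM of an entry was also divided by that of its host within each library. SNORD76 stood at 0.275 to 0.334 of the GAS5 level in CS1 libraries, 0.125 to 0.192 in CS2 libraries and 0.623 to 0.800 in DMSO libraries. SNORD79 stood at 0.0700 to 0.0790 of GAS5 after CS1, 0.0820 to 0.199 after CS2 and 0.136 to 0.222 in DMSO. SNORD28 stood at 0.212 to 0.329 of SNHG1 after CS1, 0.0930 to 0.182 after CS2 and 0.284 to 0.450 in DMSO. These hosts were chosen after their values were seen, so the ratios are given as a description. Exact permutation tests of the log2 ratios were run, 18 in number. The smallest Benjamini-Hochberg adjusted p was 0.147. Groups of this size allow no unadjusted p under 0.0571 against DMSO or under 0.1 with the hairpin, so these tests could not pass. The SNORD47 ratios overlapped in each comparison, as did those of SNORD79 after CS2 and SNORD28 after CS1.

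Among entries outside GAS5, SNORA64 and SNORA52, in the ribosomal protein genes RPS2 and RPLP2, fell after CS1. SNORA64 was at 5.79, 5.03 and 10.0 TPM, against 10.8, 17.95, 20.9 and 15.5 TPM in DMSO (-1.13, SE 0.21, adjusted p = 0.00037). SNORA52 was at 6.62, 4.19 and 6.17 TPM, against 10.8, 13.1, 26.5 and 14.7 TPM in DMSO (-1.31, SE 0.30). SNORA51 in NOP56 was at 5.93, 6.88 and 7.11 TPM, against 17.5, 8.36, 21.4 and 19.8 TPM in DMSO (-1.14, SE 0.25). Each group of 3 lay below all DMSO libraries. SNORD134 in FASN was at 0.53, 0.54 and 0 TPM, against 2.3, 4.19, 3.60 and 2.48 TPM in DMSO (-1.61, SE 0.23). SNORD3A was at 9.57, 8.86 and 5.82 TPM after CS1, against 11.7, 14.4, 14.5 and 15.2 TPM in DMSO (-0.74, SE 0.20, adjusted p = 0.0056). SNORA75 and SNORD82, both in the nucleolin gene NCL, fell with DMSO levels of 2.60 to 3.87 TPM and 3.01 to 8.22 TPM. SNORA4, SNORA61, SNORA63 and SNORA67 did not pass, with log2 fold changes of 0.11, 0.09, 0.02 and 0.09.

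With the FTO hairpin, 15 of the 233 snoRNA entries fell and 9 rose, where 24.5% of all tested entries fell and 31.9% rose. The shares among the snoRNA entries were 6.44% and 3.86%. Of SNORD entries 8 fell and 7 rose, and of SNORA entries 7 fell and 2 rose, and the median log2 fold change was -0.03 against 0.07 for all tested entries. Without shFTO replicate 1 or without shNS replicate 1 the number that fell was 9, and without shNS replicate 2 the number that rose was 5. With every library scaled to the same median 21 fell and 5 rose, where 4612 of all tested entries fell and 3759 rose, and with quantile normalization 20 fell and 6 rose. Of the 39 entries with 10 or more read equivalents, 4 fell and 1 rose; at an unadjusted p under 0.05 the count in either direction was 8.

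Entries in NOP56, which encodes a core protein of box C/D particles, moved in both directions. SNORD57 was at 17.6, 6.60 and 5.94 TPM in shFTO libraries, against 25.4, 22.6 and 22.6 TPM in shNS libraries (-1.301, SE 0.37, adjusted p = 0.0072). SNORA51 was at 0.79, 1.77 and 1.59 TPM in shFTO libraries, against 6.82, 4.54 and 4.54 TPM in shNS libraries (-1.41, SE 0.26, adjusted p = 0.00035). SNORD56 was at 6.13, 6.91 and 6.22 TPM in shFTO libraries, against 2.96, 2.95 and 2.95 TPM in shNS libraries (0.91, SE 0.18, adjusted p = 0.00062). Groups did not overlap for any of these, but each SNORD56 value was about 2 steps in shFTO and 1 step in shNS libraries. SNORA51 was at about 1, 2 and 2 steps in shFTO libraries, against 9, 6 and 6 steps in shNS libraries. The NOP56 messenger RNA fell to 175 ± 48.3 TPM in shFTO against 290 ± 2.26 TPM in shNS libraries (-0.76, SE 0.12).

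Of the 15 entries that fell with the hairpin, 7 lay in ribosomal protein genes with symbols RPL or RPS followed by a digit or A. SNORA52 also fell, but its host RPLP2 was counted with the other hosts. SNORD14C and SNORD14D lay in HSPA8. Of the 53 entries with ribosomal protein hosts so named, 7 (13.2%) fell and 1 rose. The share that fell was 6.44% of all snoRNA entries and 24.5% of all tested entries. The differences between these shares were not tested. SNORD36B in RPL7A was at 9.20, 13.8 and 12.5 TPM in shFTO libraries, against 23.7, 32.5 and 20.7 TPM in shNS libraries (-1.05, SE 0.31); the call was lost without shNS replicate 2 (-0.87). SNORA10 in RPS2 was at 4.66, 0.87 and 5.51 TPM, against 11.2, 7.47 and 8.22 TPM in shNS libraries (-1.26, SE 0.41), and its call was lost without shNS replicate 1 (-1.11) or shFTO replicate 2 (-0.70). SNORA52 was at 4.60, 1.73 and 3.11 TPM, against 7.40, 5.17 and 8.12 TPM in shNS libraries (-0.97, SE 0.32). It was lost without shNS replicate 1 (-0.92) or 3 (-0.86) or shFTO replicate 2 (-0.70). SNORD14D in HSPA8 was at 0, 3.92 and 5.30 TPM, against 11.8, 8.38 and 8.38 TPM in shNS libraries (-1.73, SE 0.70), and was lost without shNS replicate 1 (-1.58), 2 or 3 (-1.80 each) or shFTO replicate 1 (-0.90).

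SNORA44 in SNHG12 was the only entry with 10 or more read equivalents that rose, at 11.8, 20.4 and 17.5 TPM in shFTO libraries, against 9.85, 6.05 and 4.54 TPM in shNS libraries (1.19, SE 0.27, adjusted p = 0.0014). Its host did not pass (0.06). SNORA61 in the same host was at 51.5, 45.4 and 52.3 TPM in shFTO libraries, against 61.4, 62.8 and 47.3 TPM in shNS libraries (-0.19, SE 0.14, adjusted p = 0.28). SNORA21 in RPL23 rose on fewer reads, at 6.21, 5.25 and 11.02 TPM, against 5.24, 1.49 and 0.75 TPM in shNS libraries (1.44, SE 0.55). Its call was lost without shNS replicate 2 (1.303) or 3 (1.05) or shFTO replicate 1 (1.53) or 3 (1.16). In GAS5 0 of 10 entries passed in either direction with the hairpin, though the host rose to 729 ± 87.0 TPM in shFTO against 581 ± 10.8 TPM in shNS libraries (0.32, SE 0.07); at an unadjusted p under 0.05 there was 1. Of the 99 entries that fell after CS2 and the 15 that fell with the hairpin, which share no controls, 10 were in both lists, 10.1% of the first and 66.7% of the second, where 42.5% of all snoRNA entries fell after CS2. Over all tested entries 1417 fell in both, 38.6% of those that fell after CS2 and 38.7% of those that fell with the hairpin. No test of the overlap was made. The 10 were SNORA10, SNORA24, SNORA51, SNORA52, SNORA72, SNORD14C, SNORD14D, SNORD16, SNORD36B and SNORD37. Of the 9 that rose with the hairpin, 2 fell after CS2, namely SNORA44 and SNORD59B.

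Messenger RNAs of most core proteins of snoRNA particles fell in each comparison. Of 8 tested core particle genes (fibrillarin FBL, NOP56, NOP58 and SNU13 of box C/D particles, dyskerin DKC1, NOP10, NHP2 and GAR1 of H/ACA particles), 5 fell after CS1, 7 after CS2 and 8 with the hairpin, and 0 rose, where 14.3%, 24.6% and 24.5% of all tested entries fell in these comparisons and 37.5%, 49.5% and 31.9% rose. The median log2 fold changes were -0.21, -0.75 and -0.72, beside 0.09, 0.20 and 0.07 for all tested entries. DKC1, the pseudouridine synthase, was at 141 ± 3.34 TPM after CS2 against 240 ± 13.0 TPM in DMSO (-0.76, SE 0.05), and at 88.3 ± 4.88 TPM in shFTO against 177 ± 6.45 TPM in shNS libraries (-0.998, SE 0.05). After CS1 it was at 230 ± 14.1 TPM and did not pass (-0.06, SE 0.05). FBL, the methyltransferase, was at 363 ± 3.77 TPM after CS2 against 674 ± 41.0 TPM in DMSO (-0.89, SE 0.06), and at 309 ± 28.3 TPM in shFTO against 540 ± 11.4 TPM in shNS libraries (-0.80, SE 0.07).

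Of 21 tested genes for assembling particles and trimming the RNA, 6 fell and 0 rose after CS1, 13 fell and 4 rose after CS2, and 15 fell and 0 rose with the hairpin. The shares of all tested entries that fell were 14.3%, 24.6% and 24.5%, and the shares that rose were 37.5%, 49.5% and 31.9%. Medians of the 21 genes were -0.08, -0.22 and -0.45. RUVBL1, a helicase of the assembly complex, was at 24.3 ± 0.52 TPM after CS2 against 60.9 ± 0.99 TPM in DMSO (-1.29, SE 0.06). PARN, a 3′ trimming enzyme, was at 29.1 ± 0.78 TPM after CS2 against 47.5 ± 1.62 TPM in DMSO (-0.69, SE 0.03), and at 27.1 ± 0.23 TPM in shFTO against 42.1 ± 0.51 TPM in shNS libraries (-0.61, SE 0.04). DBR1, the enzyme that opens excised intron lariats, rose to 79.7 ± 0.62 TPM after CS2 against 46.1 ± 1.37 TPM in DMSO (0.78, SE 0.04). With the hairpin it fell to 26.8 ± 1.002 TPM in shFTO against 38.5 ± 1.73 TPM in shNS libraries (-0.51, SE 0.04). Whether the CS2 and hairpin responses of DBR1 differ was not tested directly.

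The 233 entries have 124 distinct host genes, of which 113 were tested. After CS1 39 hosts fell and 29 rose, after CS2 78 fell and 24 rose, and with the hairpin 45 fell and 21 rose. Of all tested entries 14.3% fell and 37.5% rose after CS1, 24.6% and 49.5% after CS2, and 24.5% and 31.9% with the hairpin. Over 206 entries with a tested host, the log2 fold changes of entry and host correlated at 0.152 after CS1, 0.51 after CS2 and 0.149 with the hairpin (Pearson r across entries, a description, since entries share hosts and libraries). For the 34 such entries with 10 or more read equivalents the values were 0.207, 0.677 and 0.211. After CS2, 82 entries fell with a host that fell. Another 8 fell with a host that rose, namely SNORA74A, SNORD144, SNORD22, SNORD25, SNORD26, SNORD27, SNORD28 and SNORD29. After CS1, 5 fell with a host that rose, namely SNORD76 and SNORD44 in GAS5, SNORA71B and SNORA71C in SNHG17, and SNORA77 in ATP2B4. The SNORD44 call after CS1 was lost without CS1 replicate 2 (-1.25).

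**Figure D5:**
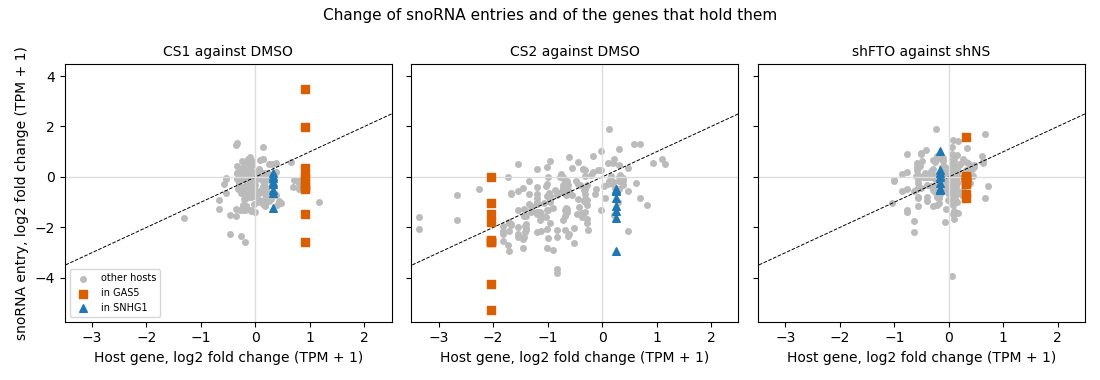
Log2 fold change of each of 206 snoRNA entries (vertical) against that of the gene that holds it (horizontal) in the 3 comparisons, with the line of equal change dashed. After CS2 the entries in SNHG1 (triangles) lie below 0 at a host change of 0.26, and after CS1 the entries in GAS5 (squares) lie mostly below the dashed line at a host change of 0.90.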

How the data were processed

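RNA was poly(A)-enriched and sequenced from 16 NOMO-1 libraries. The authors deposited 1 table of TPM values per entry and library; the unit was inferred from the values, and RSEM 1.2.31 and GRCh38 come from the submitters' processing notes. The aligner, annotation and strandedness are not stated in any source used here, so reads of an entry, its host and overlapping or near-identical genes may be shared. TPM hold no read totals, so depth is unknown. For the snoRNA entries relative steps of 1 read were estimated with an effective length of length minus 50 bases and used only to describe precision. No count test was run.

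The test ran on log2(TPM + 1) with limma 3.58.1 (R 4.3.3; lmFit, then eBayes using a trend of variance on mean). All 16 libraries entered 1 fit with a mean for each group. Tests were two-sided, with Benjamini-Hochberg adjustment over the 14951 entries that met the 1 TPM minimum in 3 or more libraries, at a threshold of 0.05. Fold changes on this scale understate changes of low entries. The fit was tested on simulated data of continuous, normally distributed values. These lack the steps and zeros of the snoRNA entries, so that test cannot tell how reliable calls on few reads are. Positions and sequences came from GENCODE release 29 and RefSeq's gene table (GRCh38.p14), where all 233 entries matched by symbol. Python 3.11.15, numpy 2.4.6, pandas 2.3.3 and matplotlib 3.10.9 did the rest.

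The entries, gene lists and tests were chosen with earlier results of these data known. Named entries were the 8 highest per class, up to 8 per comparison and direction that passed without overlap at a mean of at least 3 TPM in the higher group, and entries nearest the minimum, ranked by the third-highest TPM. Entries in GAS5 and SNHG1, SNORD3A, SNORD25 to SNORD27, SNORD80, SNORA103, and entries named because they passed in both comparisons or rose were added after their values were seen. Other pseudocounts, filters, scalings and fits, and leaving out each library, were tried. Some named results are not reported here.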

Additional observations from a re-analysis of the deposited data

Results flagged for a closer look

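For the named entries, 44 sets of DMSO libraries were checked for a library far from the other 3, which chance gives in about 1 of 20 groups. SNORA4 was at 28.36 TPM in DMSO replicate 2, where the other replicates were at 36.35, 36.40 and 35.80 TPM. SNORA70 was at 45.98 TPM in DMSO replicate 3, where the others were at 30.12, 32.25 and 30.53 TPM. SNORD78 was at 16.22 TPM in DMSO replicate 4 and at 0 in the others, which is about 4 read equivalents. SNORD82 was at 3.01 TPM in DMSO replicate 1, where the others were at 8.22, 8.09 and 7.79 TPM. The 4 values fall in 4 different libraries.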

How the results depend on the processing

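The number of snoRNA entries that rose was small and moved with the processing. After CS1, where 2 rose, it was 4 with a pseudocount of 0.1, with no filter, with the groups of the comparison alone or with a replicate block, 1 with a filter of 5 TPM, 0 among entries with 10 or more read equivalents (a restriction chosen after seeing the data), and 1 to 4 leaving out single libraries. After CS2, where 4 rose, it was 7 with no filter or a replicate block, 1 with a filter of 5 TPM, 0 among entries with 10 or more read equivalents and 3 to 7 leaving out single libraries. With the hairpin, where 9 rose, it was 5 with no filter or median scaling, 1 among entries with 10 or more read equivalents and 5 to 9 leaving out single libraries. The number that fell was 27 after CS1, 47 with median scaling, 5 among entries with 10 or more read equivalents and 21 to 31 leaving out single libraries. After CS2 it was 99, with 32 of the 39 entries with 10 or more read equivalents and 91 to 102 leaving out single libraries. With the hairpin it was 15, with 4 among entries with 10 or more read equivalents and 9 to 18 leaving out single libraries. The smaller counts among entries with 10 or more read equivalents follow from counting fewer entries; the cause of the others was not tested. Every other planned setting kept these counts within 1.5 times. Of 2038 named values under the alternatives, 1919 kept their side of the threshold, 42 newly passed, 77 no longer passed and 0 reversed, where a sign change without a pass counts as kept. Same-numbered replicates did not all deviate together (correlations -0.0093 to 0.22), and not every CS1 or CS2 library correlated best with its own number in DMSO. Each CS1 library did so with its number in CS2 (0.0853, 0.1131 and 0.2193), and each shFTO library with its number in shNS (0.0764, 0.0415 and 0.0044). The numbers were not taken as pairs. With a replicate block 37 entries fell after CS1, 103 after CS2 and 19 with the hairpin. The median entry averaged 2.63 read equivalents per library, so few reads limit what could be detected for most entries; total depth is unknown.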
